A study of Mus musculus with 20 samples.

Results

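Adult habenula neurons with a high Tac2 count were described here, as the wells of the 2 adult plates that held at least 10 counts of Tac2 and no count of Mog or Mag, the genes of a myelin surface protein and of a myelin-associated adhesion protein. Wells entered only if they had 1000 or more counts once spike-in and mitochondrial rows were set aside, 500 or more detected genes, and no more than 20% of counts from mitochondrial genes. The rule gave 89 members of 398 kept adult wells and of 3729 kept wells in all, with 3 members on plate adult-1 and 86 on plate adult-2. The comparison wells were the other 53 and 256 kept wells of the same plates. Members were chosen by their counts of Tac2, Mog and Mag, so every difference between members and other adult wells is given as a description, with no test.

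The series measured single-cell expression in the mouse habenula, and the table used here holds 15 plates of the Brn3a-tauLacZ line, which is named for a tau-LacZ reporter and for Brn3a, an older symbol of Pou4f1. Its plates came from embryonic days 11, 12, 13, 15 and 18, postnatal days 4 and 7 (P4 and P7) and the adult, and E12 alone was represented by 1 plate in place of 2. Further E18 samples of the left, right or both habenulae were not analysed here. The groups used here were the adult, P7 and P4 plates, all of that same mouse line, with no treatment named. The sources used here do not give the adult age in weeks, the sex, the genotype at the reporter locus, any sort gate or whether 2 plates of a stage came from separate mice. P-values therefore measure the spread between plates, which may be technical.

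The medial habenula is a small epithalamic nucleus whose neurons release glutamate, project to the interpeduncular nucleus and carry a dense set of nicotinic acetylcholine receptors. Its ventral neurons also make acetylcholine, and its dorsal neurons make the tachykinin substance P, the product of Tac1. Tac2 encodes the precursor of neurokinin B, a related tachykinin peptide that acts mainly on the receptor encoded by Tacr3.

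The adult plates differed in quality. Plate adult-1 kept 56 of 384 wells, with a median of 5058 counts and a median mitochondrial share of 11.9%, while adult-2 kept 342, with 11303 counts and 5.33%. The P4 and P7 plates kept 287 to 326 wells, with medians of 17367 to 23108 counts. All 384 well barcodes were shared by name by both adult plates, as a plate design, so no cell could be traced across plates. Members on adult-2 held 2942 to 40247 counts, with a median of 18914, and those on adult-1 held 1379, 1479 and 2206. Levels below are counts per 1000000 (CPM) of all counts outside spike-ins, summed over the wells of a plate, and intervals are exact 95% intervals that cover counting error only.

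Tac2 itself (ENSMUSG00000025400, chr10:127724478-127731768, forward strand, GRCm38, with no overlapping gene) reached 2602 CPM in the adult-2 members (interval 2526 to 2680). Single wells held 10.0 to 152 counts, with a median of 43.2. The 3 adult-1 members held 13.0, 15.0 and 15.0 counts at low depth, which gave 8506 CPM (6146 to 11439). Wells of adult-1 that failed the filters stood at 5358 CPM and those of adult-2 at 1011. The adult-1 members were thus shallow wells on a plate whose discarded wells were also rich in Tac2, and they are set beside adult-2 only where values are given for each plate.

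Tac2 was counted in nearly every adult well. On adult-2, 93.5% of 154 other wells led by a nonneuronal marker list, meaning that the summed counts of that list exceeded those of the 12-gene neuron list, held Tac2, at 564 CPM and a median depth of 5206 counts. Across the nonneuronal classes with at least 9 wells the Tac2 level ran from 523 CPM in wells led by oligodendrocyte precursor genes to 667 CPM in wells led by ependymal or choroid plexus genes. On adult-1 the 34 nonneuronal-led wells stood at 1007.5 CPM, and 8 of them reached the gate. The source of Tac2 counts in nonneuronal-led wells was not tested. After each well was thinned to 3000 counts, the members led by neuron genes had a median of 8 Tac2 counts (0 to 20, 80 wells, 1 too shallow), against a median of 2 (0 to 5, 123 wells, 31 too shallow) in the nonneuronal wells. Since Tac2 chose the members, that difference is set by the rule. The other kept wells led by neuron genes, most of them removed by the myelin rule, had a median of 7 (0 to 30, 99 wells).

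**Figure D1:**
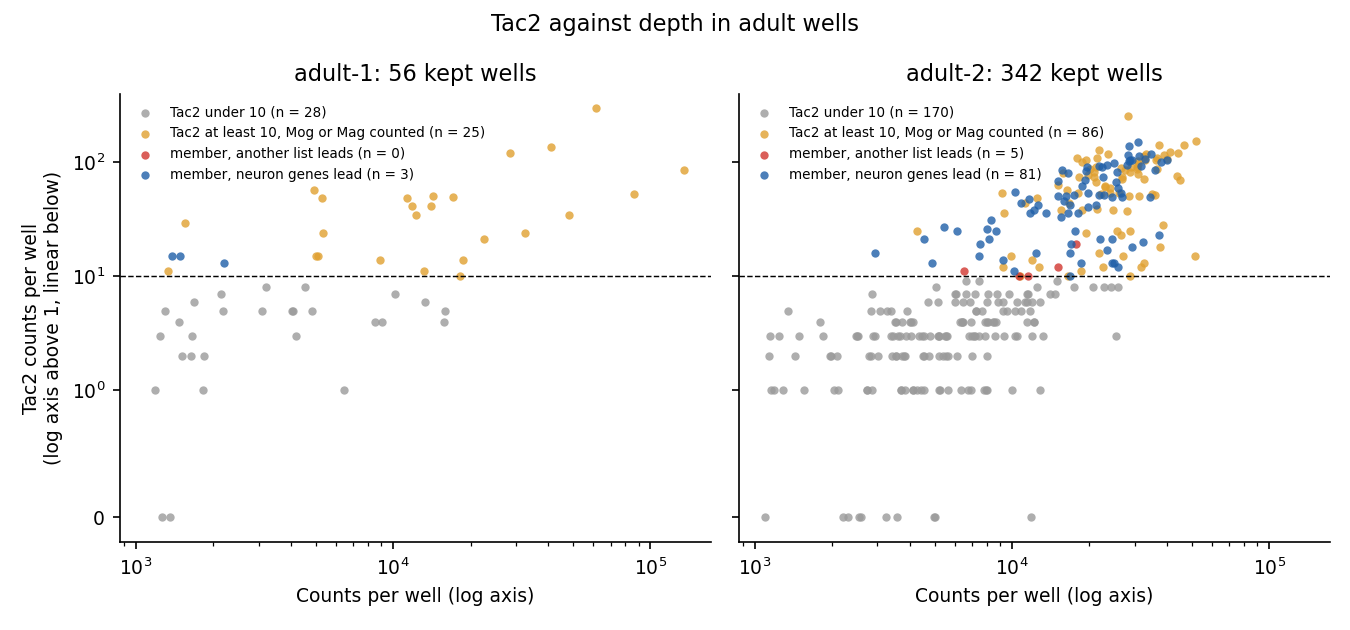
Tac2 counts (vertical, logarithmic above 1) against counts per well (horizontal, logarithmic) for the kept wells of each adult plate, coloured by class, with the gate of 10 counts as a dashed line. On adult-2 the 81 members led by neuron genes overlap the 86 Tac2-high wells with Mog or Mag, while the 5 members led by another list lie at 10 to 19 counts.

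The gate is a number of counts and so moves with depth. On adult-2 7 members held 10 to 12 Tac2 counts, of which 4 were led by a nonneuronal list, and 16 wells just outside held 7 to 9, of which 10 were. The share of kept wells inside the gate was 25.1% on adult-2 (interval 20.6% to 30.1%) and 5.36% on adult-1 (1.12% to 14.9%), where no well of 37 with at least 2000 counts was inside it. The same rule took 40.2% and 35.0% of the P7 plates, 11.8% and 7.14% of the P4 plates, and 0 wells on each embryonic plate, which allows shares of up to 0.870% on E11-2 to 2.73% on E18-2. With each well thinned to 3000 counts and a gate of 3 Tac2 counts, the share was 28.0% on adult-2 and 0% on adult-1. The P7 plates then gave 31.6% and 27.4%, and the P4 plates 8.0% and 2.95%. The requirement for no Mog and no Mag removed few gated wells on the P4 and P7 plates. One of these genes was counted in 51 of 56 kept wells on adult-1 and 141 of 342 on adult-2, against 1 to 6 wells on each P4 and P7 plate. It removed 25 wells with at least 10 Tac2 counts on adult-1 and 86 on adult-2, 1 on P7-1, 2 on P7-2 and 0 on each P4 plate.

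The 86 removed wells of adult-2 were compared with the members by list. Their Tac2 level was 2567 CPM against 2602, their summed neuron list 6564 against 6279, and their summed list of 22 medial habenula genes 9911 against 10001. The oligodendrocyte list stood at 284 CPM against 207, the precursor list at 209 against 418 and the immediate early list at 1478 against 2006, and the median depth was 25833 counts against 18914. The 81 members led by neuron genes held the precursor list at 167 CPM, below the removed wells, of which 2 were led by a nonneuronal list. The 5 members led by another list held up to 220 immediate early counts a well. The removed wells of adult-1 carried the oligodendrocyte list at 6685 CPM, and 8 of those 25 were led by a nonneuronal list.

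Neuron genes led 81 of the 86 members on adult-2. They also led the 3 on adult-1, which hold 12, 18 and 3 neuron-list counts, the last against 1 oligodendrocyte and 1 astrocyte count. None of these 3 held a Pou4f1 count, and their oligodendrocyte list stood at 1185 CPM against 207 in the adult-2 members. In the 81, the neuron list stood at 6454 CPM and the medial habenula list at 10326 CPM, against 2431 and 2805 CPM in the 115 wells of that plate with Tac2 under 10 and no myelin count, of which 101 were led by a nonneuronal list. The 81 were picked by the neuron list, so its gap is a description only. Their Tac2 level per well ran from 466 CPM over a median of 2834 to 5448, and the lowest 3 wells, at 466, 524 and 531 CPM, lay under the pooled 564 CPM of the nonneuronal-led wells. The other 5 went against the label. In 4 of them oligodendrocyte precursor genes led, with Pdgfra, a growth factor receptor of these cells, at 1583 CPM and Olig1 and Olig2, their lineage transcription factors, at 2296 and 1293 CPM. The last was led by ependymal or choroid plexus genes. These 5 held 10.0 to 19.0 Tac2 counts.

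The other label genes were not part of the gate, although they were chosen with these data in view. Thy1, a neuronal surface glycoprotein (ENSMUSG00000032011, chr9:44043384-44048579), was at 893 CPM in the adult-2 members, 921 in the Tac2-high wells with Mog or Mag, and 258 and 179 in the wells with Tac2 under 10, without and with myelin counts. Faim2, an inhibitor of Fas-mediated cell death (ENSMUSG00000023011, chr15:99497012-99528165), was at 314, 285, 138 and 192 CPM in the same order. Ppp1r1b, which encodes the phosphatase inhibitor DARPP-32 (ENSMUSG00000061718, chr11:98348404-98357796), was at 169, 211, 43.2 and 15.5 CPM. On adult-1 the 3 members held Thy1 at 593 CPM against 936 in other wells, Faim2 at 197 against 245, and no count of Ppp1r1b against 130.1. All 3 genes were higher in Tac2-high than in Tac2-low wells of adult-2. Of those Tac2-low wells, 101 of 115 without and 51 of 55 with myelin counts were led by a nonneuronal list. The gap thus mostly sets neuron-led against nonneuronal-led wells, and a link to the Tac2 level among neurons was not tested. None was higher in members than in other wells on adult-1, but those 3 members hold 5064 counts in all, too few to give a direction. Ppp1r1b overlaps a noncoding transcript on the other strand, and whether counting used strand is not stated, so its counts are uncertain.

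The splicing of Tac2 reads was not used by the rule. In the 81 members led by neuron genes, 630 of 4327 Tac2 UMIs were unspliced, or 14.6% (interval 13.5% to 15.6%), and in the Tac2-high wells with Mog or Mag it was 14.1% on adult-2 and 11.6% on adult-1. In adult-2 wells with Tac2 under 10 it was 10 of 589, or 1.70% (0.817% to 3.10%), and in the 5 members led by another list 1 of 62, or 1.61% (0.0408% to 8.66%). Wells of adult-1 with Tac2 under 10 stood at 3.60% (0.990% to 8.97%). Wells that failed the filters were higher, at 44 of 404 or 10.9% on adult-1 and 4 of 53 or 7.55% on adult-2. In the 3 adult-1 members 5 of 43 were unspliced, or 11.6% (3.89% to 25.1%), an interval too wide to place them.

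The unspliced share of Tac2 was lower in young Tac2-high wells. It was 7.01% (6.31% to 7.75%) and 7.62% (6.72% to 8.59%) on the P7 plates and 8.04% (6.32% to 10.0%) and 5.15% (3.21% to 7.76%) on the P4 plates. The adult-2 interval and that of the adult-1 wells with Mog or Mag (9.86% to 13.4%) did not overlap the P7 intervals. That adult-1 interval did overlap the one of plate P4-1. The intervals cover counting error and not the spread between plates. Over all genes the share was 26.0% in the adult-2 members, 25.7% and 25.8% at P7 and 22.4% and 24.98% at P4. On adult-2 the gap from P7 for Tac2 was thus not shared by the total. The adult-1 Tac2-high wells with Mog or Mag stood at 29.8% over all genes, above every P7 and P4 plate. Nwd2, a gene of the medial habenula list, was at 44.1% in the members against 32.4% and 31.4% at P7, while Snap25, a protein of the synaptic vesicle fusion complex, was at 13.8% against 20.2% and 20.0%. The adult-1 members had an unspliced share of 7.72% over all genes, far below the 29.8% of the Tac2-high wells with Mog or Mag on that plate.

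**Figure D2:**
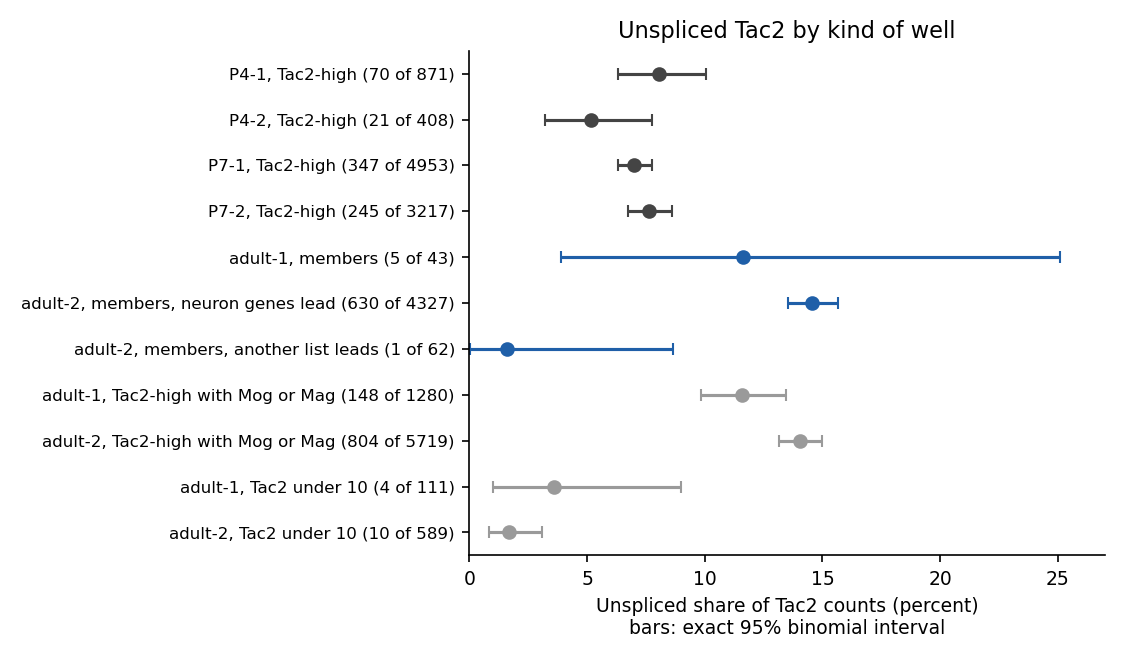
Unspliced percentage of Tac2 counts (horizontal, with exact 95% binomial intervals) for each class of well (vertical, with unspliced and total counts). The adult-2 members led by neuron genes sit at 14.6%, the P4 and P7 Tac2-high wells at 5.15% to 8.04% and the adult-2 wells with Tac2 under 10 at 1.70%.

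Members were set against the other kept wells of their plates. Of 958 genes with at least 200 CPM in the higher class on both plates, none was at least 2-fold higher in members on both, and 45 were at least 2-fold lower. The others include the 25 and 86 Tac2-high wells of adult-1 and adult-2 that the myelin rule removed. Against only the other wells with no Mog or Mag, 319 genes were at least 2-fold higher and 256 lower, although adult-1 then offered 2 wells. The rule removed wells with myelin counts, so low myelin genes follow from it. Mbp, myelin basic protein, was at 20.7 CPM in the adult-2 members against 438 in the others, and Trf, the transferrin made by oligodendrocytes, at 8.28 against 226.

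A rule of size named 20 genes with the largest excess in members on both plates. The 3 adult-1 members held 5064 counts in all, so their levels rest on few counts. Gpr151, an orphan receptor of habenular neurons, was at 790.2 CPM in adult-1 members against 249 in others, and at 1069.8 against 634 on adult-2. Oprm1, the mu opioid receptor, was at 395 against 136 and at 411 against 257. Pcp4, a calmodulin-binding peptide, was at 6331 against 1421 and at 2283 against 1485. These gaps were smaller against the removed Tac2-high wells of adult-2, where Gpr151 was at 836, Oprm1 at 323 and Pcp4 at 1930.4 CPM. Wells with Tac2 under 10 and no myelin count on that plate held Gpr151 at 239.9, Oprm1 at 134 and Pcp4 at 671 CPM. Among the other 17 genes of that rule were the calcium sensors Necab2 and Calb2, the synaptotagmins Syt6 and Syt13, the granule protein Chgb, the G protein subunit Gng8 and the transcription factor Zic1.

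Within the 81 neuron-led members of adult-2, counts of 3 or more of Slc5a7, the choline transporter that supplies acetylcholine synthesis (ENSMUSG00000023945, chr17:54273590-54299034), and of Calb1, a calcium buffer (ENSMUSG00000028222, chr4:15881264-15908064), were rarely found together. Slc5a7 alone reached that count in 35 wells, Calb1 alone in 22, both in 3 and neither in 21. This separation depends on the cut of 3 counts. At least 1 count of Slc5a7 was found in 61 of the 81 wells, and of Calb1 in 44, so many wells held both. Calb1 was counted in 10 of the 35 Slc5a7 wells, and Slc5a7 in 10 of the 22 Calb1 wells. The pair was chosen after the values were seen, and wells of 1 plate share a library, so the groups are a description. Their median depths were 25388 counts for Slc5a7 alone, 17558 for Calb1 alone and 11701 for neither, so part of the last group is shallow wells. At 5000 counts a well (78 wells), 53.8% held Slc5a7 and 35.9% held Calb1, against 75.3% and 54.3% unthinned.

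The Slc5a7 wells carried the cholinergic set. Chat, the enzyme that makes acetylcholine, was at 157 CPM against 18.9 in the Calb1 wells, and Slc18a3, the vesicular acetylcholine transporter, at 157 against 23.7, although these genes overlap on 1 strand and their reads may be split. Among genes outside that set, the vesicle protein Synpr had a lowest, median and highest well of 0, 1460.0 and 2707 CPM against 0, 0 and 279.8. Nrgn, a calmodulin-binding protein of dendrites, had 480.4, 2127 and 3925 CPM against 172, 382 and 1033. Both genes were mostly high in Slc5a7 wells and low in Calb1 wells, with overlap at the low end. Slc17a7 and the protein kinase Prkcb were at 435 and 1009 CPM against 170.5 and 128.

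The Calb1 wells carried another set. Calb2, a second calcium buffer, had 124, 2335 and 4249 CPM as lowest, median and highest well against 0, 158 and 1758 in the Slc5a7 wells. Oprm1 had 246, 961 and 1836 CPM against 0, 34.2 and 698, and Wif1, a secreted Wnt inhibitor, had 0, 299 and 999 against 0, 0 and 143. The neuropeptide genes Tac1, Cck and Adcyap1 were at 197, 239 and 342 CPM summed over the Calb1 wells against 20.5, 21.7 and 19.4. In the 21 wells with neither gene Tac1 stood at 195 CPM in sum, from 6 wells with a count, against 15 of the 22 Calb1 wells. Kcng4, a modulatory potassium channel subunit, was at 617 against 166 CPM, and Gng8 at 1035 against 447.

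Tac2, which the rule required in every well, was at 2783 CPM in the Slc5a7 wells, 2329 in the Calb1 wells and 2964 in the wells with neither. Nwd2 was at 4302 and 4227 CPM in the Slc5a7 and Calb1 wells, and Slc17a6, a vesicular glutamate transporter, at 341 and 296. Pou4f1, a lineage transcription factor of habenula neurons, was at 261 and 301. The same cut was applied to the neuron-led Tac2-high wells with Mog or Mag, which the rule left out. Those of adult-2 share a plate with the members. On adult-2 the cut gave 46 wells for Slc5a7 alone, 21 for Calb1 alone, 8 for both and 9 for neither. Synpr was at 1414 CPM in the Slc5a7 wells against 46.1 in the Calb1 wells, and Oprm1 at 117 against 752. On adult-1 the cut gave 3, 4, 0 and 10, with Synpr at 1045 against 101 CPM and Oprm1 at 32.4 against 515. These adult-1 wells are too few for the 0 with both to show a separation.

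**Figure D3:**
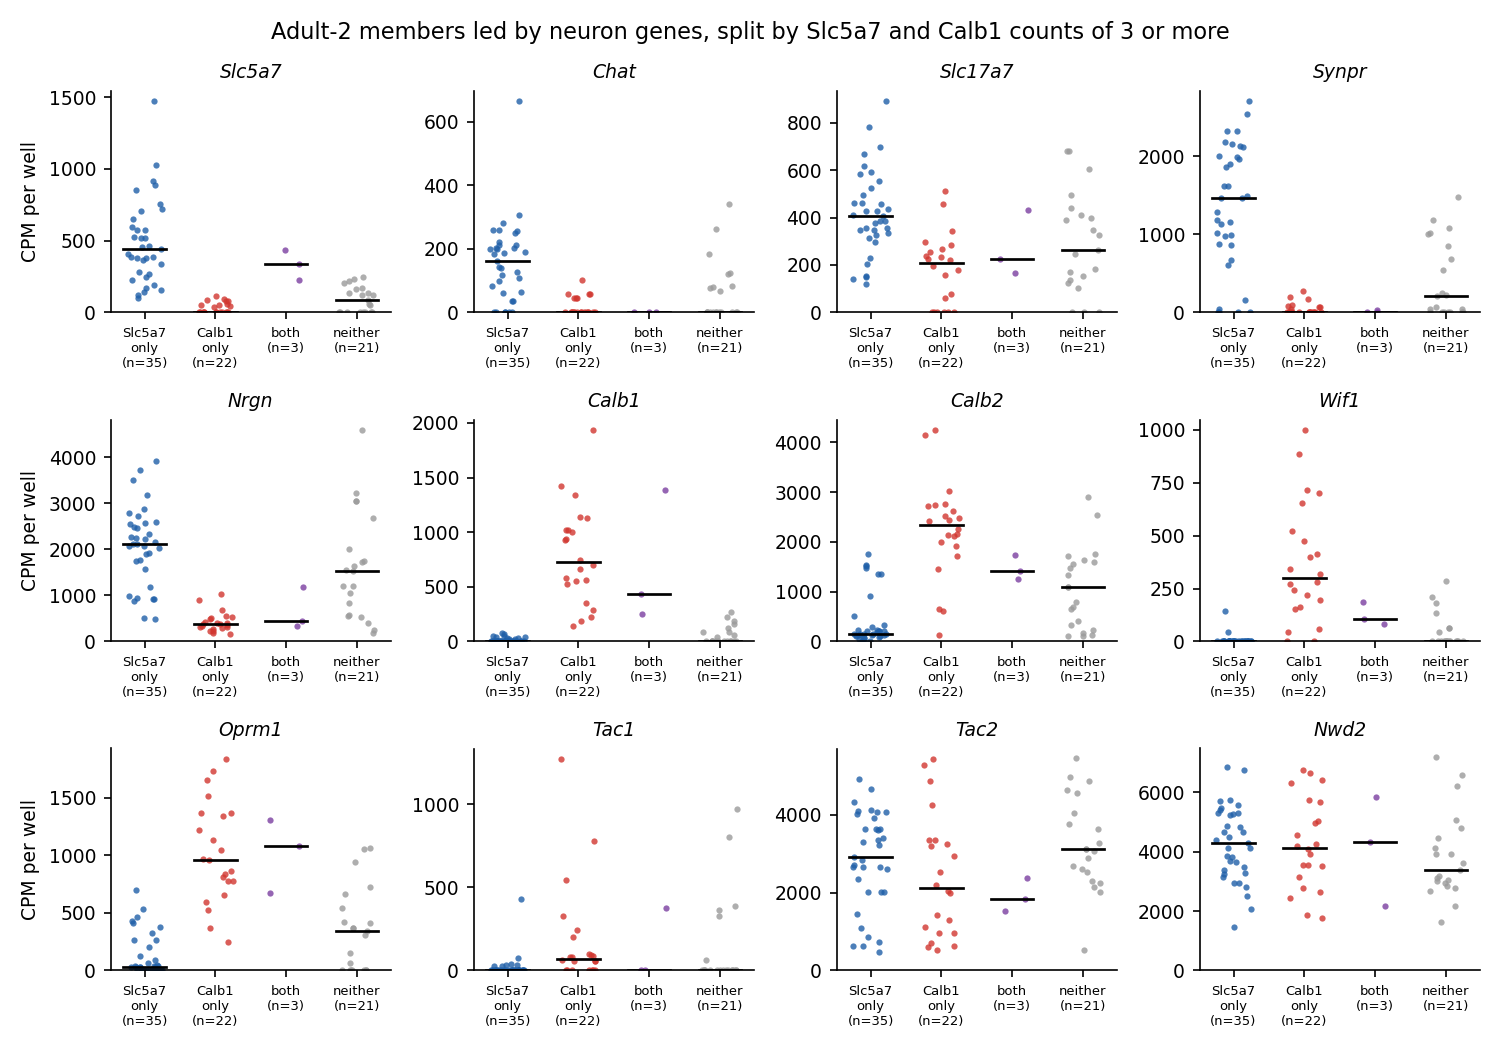
CPM per well (vertical) of 12 genes in the 81 neuron-led adult-2 members, split by counts of at least 3 of Slc5a7 and Calb1 (horizontal, number of wells in brackets), with a line at each median. Synpr and Nrgn lie high in the Slc5a7 wells, Calb2, Wif1 and Oprm1 in the Calb1 wells, and Tac2 and Nwd2 in both.

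Htr2c, a serotonin receptor in the lateral habenula list, reached 3 counts in 6 of the 81 wells, at 791 CPM against 13.0 in the other 75. In those 6 wells Tac2 was at 812 CPM (lowest 524, median 621, highest 1437) against 2871 (466, 2933 and 5448), and Pcdh10, a cell adhesion protein, at 169 against 4.78. Peg10, an imprinted gene of retroviral origin, was at 621 against 6.15 CPM, but its median well held 20.1 and its highest 2921, so most of that level came from few wells. Gpr151, also in the lateral habenula list, differed little, at 1229 against 1095 CPM with median wells at 1232 and 1026. Pou4f1 was at 266 against 269 CPM. The 6 wells had a median of 28524 counts against 19151, so they could pass the Tac2 gate at a lower CPM. They were chosen after the values were seen.

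The adult members were compared with P7 and P4 wells that passed the same rule, which held 131 and 103 wells at P7 and 34 and 23 at P4. Since adult-1 had under 10 members, the adult side was the sum over 86 wells of adult-2 alone, and its spread was taken to be like that of the young plates. Plate and stage cannot be told apart in it. A second fit dropped the Mog and Mag rule, which gave 28 and 172 adult wells on adult-1 and adult-2, 132 and 105 P7 wells and the same P4 wells, and so had 2 adult plates. In its adult-1 sum 1 well gave 21.5% of the counts and 8 wells were led by a nonneuronal list. Tac2, Mog and Mag were left out of both, and p-values are from edgeR's quasi-likelihood test with Benjamini-Hochberg adjustment.

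Between P7 and the adult, 1954 of 12789 genes passed an adjusted p of 0.05 (15.3%), with 971 higher (7.59%) and 983 lower (7.69%) in the adult members. With 2 adult plates 680 of 12354 passed (5.5%), with 358 higher (2.9%) and 322 lower (2.61%), of which 649 were also called in the members, all in the same direction. DESeq2 called 521 in the members, and leaving out plate P7-1 or P7-2 left 737 or 795 calls. The median log2 fold change over all genes was -0.01. Genes that passed in both fits are called here without qualification, and others are named as lost with 2 adult plates. The 2 fits share the P4 wells, nearly all P7 wells and the adult-2 members, so a common direction is largely built in. Fold changes are log2 values ± SE from the members, followed by the adjusted p in the members and then with 2 adult plates. Levels given for adult-1 in this comparison are from its wells with Mog and Mag allowed.

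Most genes of growing neurons fell. Of 18 such genes tested, 14 fell and 1 rose in the members, against 7.69% and 7.59% of all genes, and 13 fell and 1 rose with 2 adult plates. The list median was -1.53, beside -0.01 for all genes. Dcx, a microtubule protein of migrating neurons, was at 504 and 539 CPM on the P4 plates, 290.4 and 309 at P7, and 36.7 in the adult-2 members. With Mog and Mag allowed it was at 60.5 on adult-1 and 36.2 on adult-2. Every adult sum was below every young sum, and the gene fell by 3.08 ± 0.22 (adjusted p = 1.36e-12 and 0.0025).

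Several others fell by somewhat less. Marcksl1, an actin-regulating protein, was at 1526 and 1363 CPM at P4, 1163 and 1146 at P7 and 183 in the members, and fell by 2.71 ± 0.18 (adjusted p = 4.41e-13 and 0.000496). Dpysl3, a collapsin response protein of growth cones, was at 1471 and 1620 CPM at P4, 957 and 976 at P7 and 151 in the members, and fell by 2.73 ± 0.19 (5.41e-13 and 0.00042). Sox4, a transcription factor of immature neurons, was at 642 and 599.9 CPM at P4, 421 and 418 at P7 and 88.1 in the members, and fell by 2.30 ± 0.19 (6.15e-11 and 0.00111). Adult-1 lay with adult-2 for all 3, at 186, 119 and 47.7 CPM. The tubulins Tubb2b, Tubb3 and Tuba1a, the stathmin Stmn2, Basp1 and Crmp1 fell too. Stmn1 was lost with 2 adult plates (adjusted p = 0.0033 and 0.96), with 57.3 CPM on adult-1 against 14.0 on adult-2. Gap43, a growth cone phosphoprotein that sits in the same list, rose, from 19.1 and 20.2 CPM at P7 to 53.3 in the members and 182 on adult-1, by 1.38 ± 0.32 (0.0018 and 0.027). The 6 Htr2c wells held it at 224 CPM and the other 75 at 32.1.

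Genes of the axonal and synaptic apparatus changed in both directions. Of 18 synaptic vesicle genes 6 rose and 1 fell in the members (7.59% and 7.69% of all genes), and 2 rose and 1 fell with 2 adult plates (2.9% and 2.61%). With nonneuronal-led wells also left out of the 2 adult plates, 5 rose and 1 fell. Snap25 was at 599.7 and 591 CPM at P4, 736 and 661 at P7, 1225 in the members and 1331 on adult-1, and rose by 0.76 ± 0.15 (adjusted p = 0.00045 and 0.027). Syt2, a fast calcium sensor, rose by 2.28 ± 0.51 from 5.25 and 5.93 CPM to 28.4 (0.0015 and 0.042). Stx1a, the syntaxin partner of Snap25, fell by 1.29 ± 0.25 from 77.6 and 76.0 CPM to 32.5, with 17.5 on adult-1 (0.000272 and 0.024). Vamp2, Cplx1, Rab3a and Sv2a were lost with 2 adult plates, but Vamp2, Cplx1 and Sv2a passed there without nonneuronal-led wells (adjusted p = 0.035, 0.0403 and 0.0362). Of 9 neurofilament and axon genes 5 rose and 2 fell (7.59% and 7.69% of all genes), and 3 rose and 1 fell with 2 adult plates (2.9% and 2.61%). These rises include the label genes Thy1 and Faim2, which were chosen with these data in view and support nothing here. In the members Nefh rose and Nefl fell. Nefh and Nefl, the heavy and light neurofilament subunits, were lost with 2 adult plates (adjusted p = 0.000449 and 0.0835 for Nefh, 0.00582 and 0.371 for Nefl). Ina, the internexin subunit of young axons, fell by 1.48 ± 0.17 from 1811 and 1609 CPM to 638 (9.2e-08 and 0.011), and Sncg, a synuclein, rose by 0.96 ± 0.20 from 59.1 and 61.4 to 122 (0.000694 and 0.045).

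Apart from that count, the label genes are given by their stage levels, with no test. Thy1 stood at 138 and 140.04 CPM on the P4 plates, 443 and 437 at P7, 893 in the adult-2 members and, with Mog and Mag allowed, 1030.4 on adult-1. Faim2 stood at 45.3 and 42.2, 65.2 and 68.4, 314 and 256 CPM in the same order. Ppp1r1b stood at 47.6 and 37.1, 84.3 and 61.7, 169 and 135 CPM. Each was higher in both adult sums than on any young plate.

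**Figure D4:**
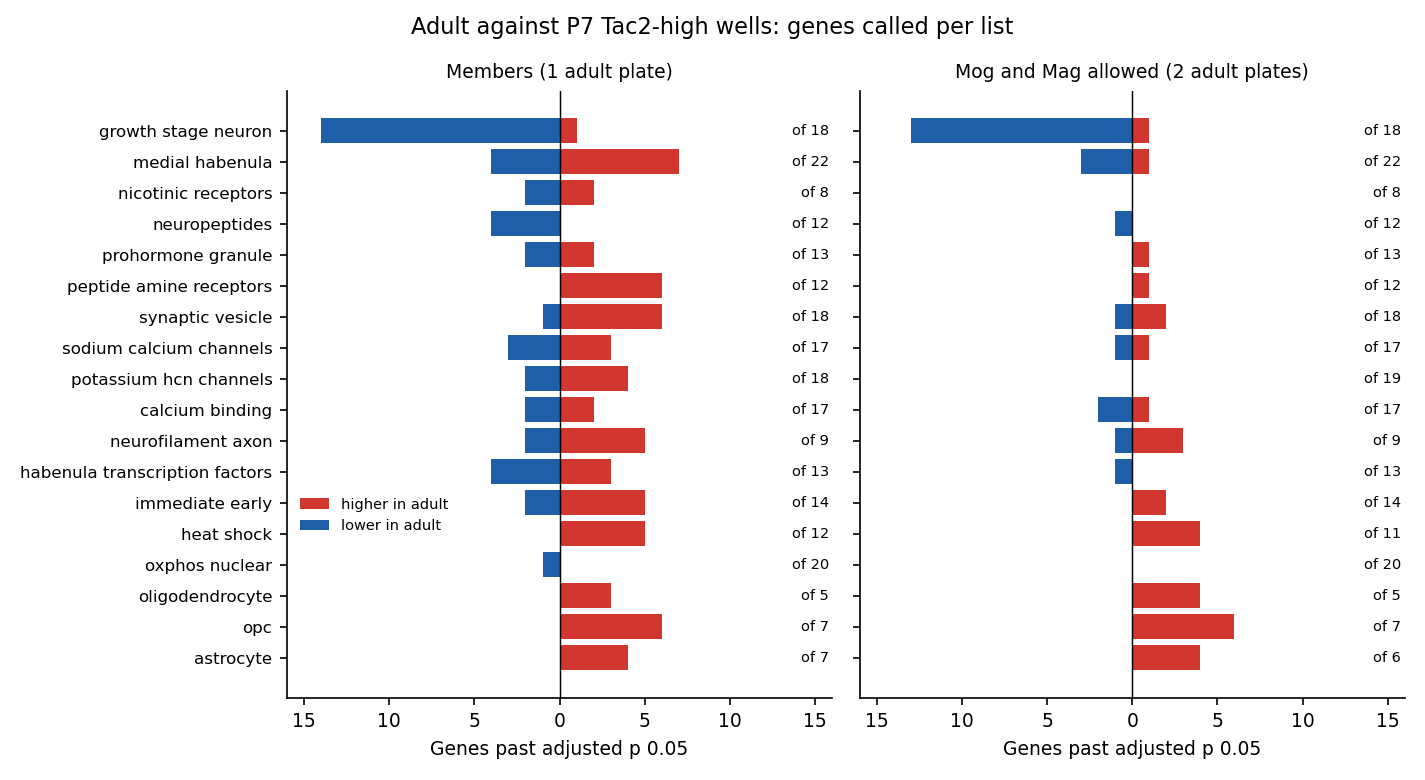
Number of genes per list (horizontal, higher to the right and lower to the left) past an adjusted p of 0.05 between P7 and adult Tac2-high wells, for the members on 1 adult plate and for the 2 adult plates with Mog and Mag allowed, with the number tested beside each bar. The growth-stage list has 14 and 13 lower genes in the 2 panels, while most other neuronal lists have fewer calls with 2 adult plates.

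Among peptide precursors, none of 12 tested genes rose and 4 fell from P7 (7.69% of all genes fell), and 1 fell with 2 adult plates (2.61% of all genes). Adcyap1, the precursor of PACAP, was at 55.6 and 64.1 CPM at P4, 157 and 166 at P7, 101 in the members and 39.8 on adult-1, and fell by 0.73 ± 0.20 (adjusted p = 0.009 and 0.046). Tac1 was at 107 and 38.8 CPM at P4, 244 and 203 at P7 and 95.4 in the members, and its fall of 1.29 ± 0.24 was lost with 2 adult plates (0.000194 and 0.53), where adult-1 stood at 217 CPM. Vgf, a granule peptide precursor, was likewise lost (4.15e-07 and 0.98), with 15.4 CPM in the members and 202 on adult-1. Of the machinery that processes peptides, Pcsk1n, an inhibitor of a prohormone convertase, rose by 1.11 ± 0.16 from 522 and 415 CPM to 1051, with 971 on adult-1 (5.7e-06 and 0.021). It was the 1 gene of 13 in the granule list to pass with 2 adult plates, where 2.9% of all genes rose.

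Of 12 receptors for peptides and amines tested, 6 rose and none fell in the members, where 7.59% of all genes rose. With 2 adult plates 1 rose, beside 2.9% of all genes. Tacr1, the substance P receptor, was at 40.8 and 59.0 CPM at P4, 49.2 and 53.4 at P7, 127 in the members and 30.2 on adult-1 (adjusted p = 3.21e-05 and 0.41). Gpr151 was at 228 and 152 CPM at P4, 338 and 316 at P7, 1069.8 in the members and 296 on adult-1 (2e-09 and 0.227). Oprm1 was at 164 and 153 CPM at P7, 411 in the members and 156 on adult-1 (2.94e-07 and 0.2). For these 3 genes the adult plates disagreed, adult-1, taken with Mog and Mag allowed, lying near or below P7. Htr2c, with no count on either P4 plate, was at 16.04 and 4.53 CPM at P7, 88.6 in the members and 727 on adult-1, and rose (2.14e-07 and 0.03). That level was uneven: on adult-2 the 6 wells with at least 3 Htr2c counts, which were low in Tac2, held it at 791 CPM, and the other 75 neuron-led members at 13.0, between the P7 plates. Tacr3, the receptor for neurokinin B, was at 0.591 CPM in the members and was not tested.

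Of 5 cholinergic genes 1 rose from P7 in the members (7.59% of all genes rose), and none passed with 2 adult plates. Chat was at 68.0 and 81.0 CPM at P4, 50.3 and 51.6 at P7, 96.4 in the members and 54.1 on adult-1 (adjusted p = 0.0036 and 0.19). Slc5a7 was at 264 and 387 CPM at P4, 197 and 206 at P7, 277 in the members and 78.0 on adult-1 (0.13 and 0.93). Of 8 nicotinic subunits, 2 rose (Chrna4 and Chrnb4) and 2 fell (Chrna6 and Chrna7) in the members, and none passed with 2 adult plates. Of 6 genes of amino acid transmission 1 rose and 2 fell, and 1 rose with 2 adult plates. Over all genes 7.59% rose and 7.69% fell in the members, and 2.9% and 2.61% with 2 adult plates. Chrna3, a core subunit of habenular receptors, was at 361 and 385 CPM at P7 and 377 in the members, a difference of -0.04 ± 0.16.

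Of 22 medial habenula genes 7 rose and 4 fell in the members, where 7.59% and 7.69% of all genes did. With 2 adult plates 1 rose and 3 fell, beside 2.9% and 2.61% of all genes. In that fit the adult plates differed over the whole list, summed at 6016 CPM on adult-1 against 9950 on adult-2. The oligodendrocyte list stood at 6640 against 251 CPM. Pou4f1 was at 467 and 491 CPM at P4, 482 and 469 at P7, 259 in the members and 188 on adult-1, and fell by 0.93 ± 0.17 (adjusted p = 0.000113 and 0.017). Necab1, a calcium-binding protein, fell by 2.51 ± 0.35 from 49.5 and 62.1 CPM to 10.1 (2.76e-06 and 0.015). Wif1 fell by 0.78 ± 0.19 from 162 and 183 CPM to 104 (0.0041 and 0.025). Spon1, a secreted matrix protein, rose by 1.13 ± 0.19 from 83.2 and 69.4 CPM to 175 (5.25e-05 and 0.036). It missed the threshold once the nonneuronal-led wells were also left out (0.22). Of 13 transcription factors of the habenula 3 rose and 4 fell in the members (7.59% and 7.69% of all genes), and Pou4f1 was the 1 that passed in both fits. Of 11 lateral habenula genes 3 rose and 3 fell (7.59% and 7.69% of all genes), and Htr2c and Peg10 rose with 2 adult plates (2.9% of all genes). The 6 Htr2c wells held Peg10 at 621 CPM and the other 75 at 6.15, and 1 well reached 2921.

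Of 17 sodium and calcium channel genes 3 rose and 3 fell in the members (7.59% and 7.69% of all genes), and 1 rose and 1 fell with 2 adult plates, beside 2.9% and 2.61% of all genes. Cacna1h, a low-threshold calcium channel, fell by 3.28 ± 0.67 from 15.5 and 19.2 CPM to 1.77 (adjusted p = 0.000555 and 0.019). Of potassium and HCN channel genes 4 rose and 2 fell among 18 in the members (again beside 7.59% and 7.69%), and none passed among 19 with 2 adult plates. Kcna2, an axonal potassium channel, was at 124 and 129.8 CPM at P7, 345 in the members and 156 on adult-1 (1.31e-07 and 0.082). Among 17 calcium-binding genes, Camk2n1, an inhibitor of CaM kinase II, rose by 0.83 ± 0.16 (0.000435 and 0.039) and Camk4, a nuclear CaM kinase, fell by 2.09 ± 0.28 (1.02e-06 and 0.012). Necab1 fell as above. In the list of dopamine and cyclic AMP signalling genes 2 of 13 rose and 1 fell (7.59% and 7.69% of all genes), and 1 of 14 rose and 1 fell with 2 adult plates (2.9% and 2.61%). The fall in both was that of Prkar2b, a regulatory subunit of protein kinase A, by 1.03 ± 0.18 (0.0001 and 0.019).

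Of 12 heat shock genes tested 5 rose and none fell in the members (7.59% of all genes rose), and 4 of 11 rose with 2 adult plates (2.9% of all genes). Hspa1a, an inducible HSP70, was at 14.7 and 18.5 CPM at P4, 24.3 and 27.9 at P7, 547 in the members and 175 on adult-1, and rose by 4.34 ± 0.18 (adjusted p = 1.86e-18 and 0.0034). Its near-identical copy Hspa1b rose by 4.55 ± 0.20 from 19.9 and 19.5 CPM to 480.3 (2.94e-18 and 0.00111), and reads of the 2 may be split. Dnajb1 and Hsph1, which assist HSP70, rose by 2.22 ± 0.21 and 1.81 ± 0.18. The summed heat shock list was at 4707 CPM in the adult-2 members and at 2767 and 2711 in the P7 wells. In the adult-2 wells with Tac2 under 10 it was at 3878 CPM without and 3387 with myelin counts. Handling of a plate and stage cannot be told apart for the heat shock genes. Hspa8, the constitutive form, was at 160.0 and 176 CPM at P7 and 137 in the members (0.26 and 0.8).

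Of 14 immediate early genes 5 rose and 2 fell in the members (7.59% and 7.69% of all genes), and 2 rose with 2 adult plates (2.9% of all genes), or 1 once nonneuronal-led wells were also left out. Egr1, an activity-induced transcription factor, was at 23.8 and 18.5 CPM at P4, 43.9 and 50.6 at P7, 256 in the members and 249 on adult-1, and rose by 2.39 ± 0.19 (adjusted p = 1.81e-11 and 0.0012). Jun rose by 1.33 ± 0.21 from 134 and 181 CPM to 408 (1.58e-05 and 0.047), but not once the nonneuronal-led wells were also left out (0.058), and it overlaps a transcript on the other strand. Fos was at 339 and 615 CPM on the P7 plates and 515 in the members, within the spread of those plates (0.07 ± 0.21, adjusted p = 0.88). Jun and Egr1 rose and Fos did not pass. Handling of a plate and stage cannot be told apart for these genes. The 20 nuclear genes of oxidative phosphorylation gave 0 rises and 1 fall (Cycs) in the members and no call with 2 adult plates.

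**Figure D5:**
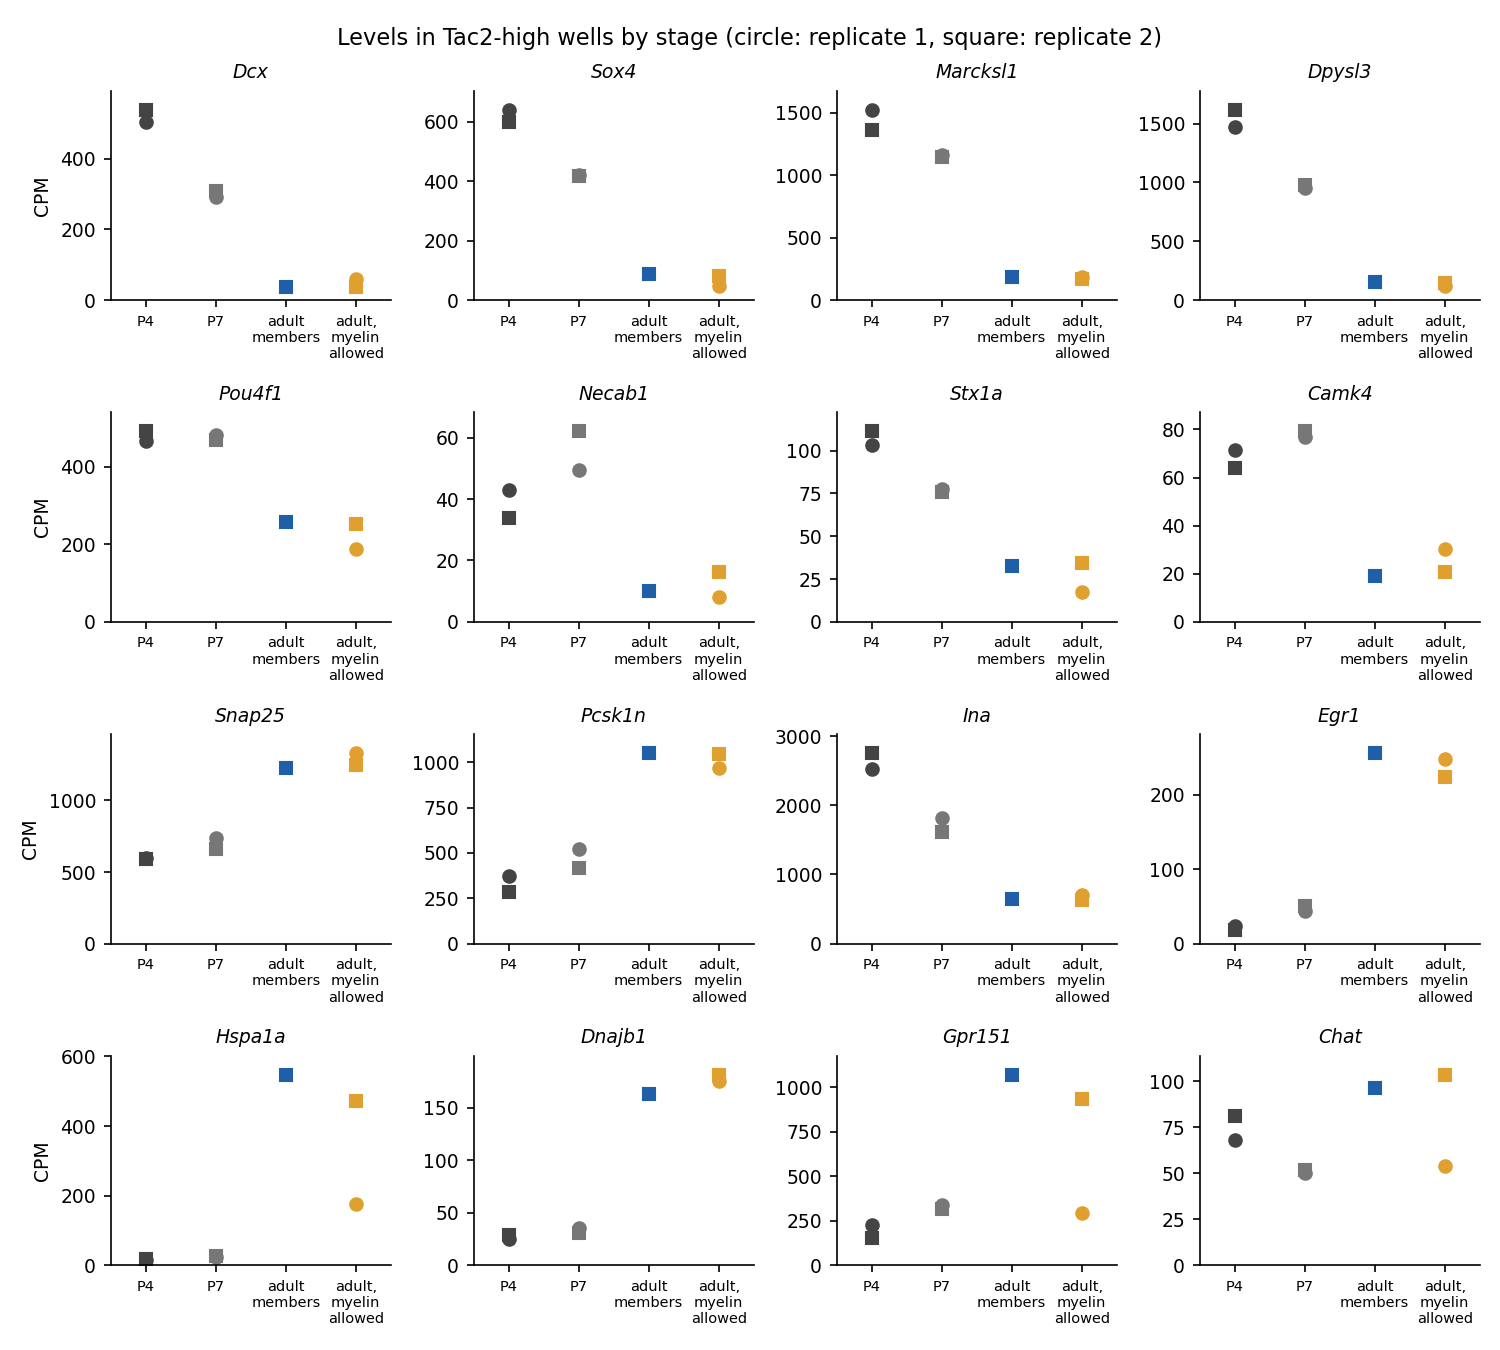
CPM (vertical) of 16 genes in Tac2-high wells summed per plate at P4, P7 and in the adult (horizontal), with the adult given for members on adult-2 and for wells with Mog and Mag allowed on both plates. Dcx, Sox4, Marcksl1 and Dpysl3 are lower and Egr1, Hspa1a and Dnajb1 higher in every adult sum, while Gpr151 and Chat differ between the adult plates.

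Some genes of glial cells also rose in the adult sums. In the 86 members, which include 4 led by precursor genes, 6 of 7 oligodendrocyte precursor genes, 3 of 5 oligodendrocyte genes and 4 of 7 astrocyte genes rose and none fell (7.59% of all genes rose). With 2 adult plates it was 6 of 7, 4 of 5 and 4 of 6 (2.9% of all genes), and the precursor count fell to 3 once nonneuronal-led wells were also left out. Over the 81 neuron-led members alone, the summed oligodendrocyte list was at 165 CPM, against 634 in the adult-2 wells with Tac2 under 10 and no Mog or Mag, and 39.5 and 34.5 on the P7 plates. The astrocyte list was at 282 against 3337 and 62.4 and 55.5, and the precursor list at 167 against 3373 and 55.0 and 54.8. Each list lay above P7 and below those Tac2-low wells. Of the defining genes, Mog and Mag were at 0 by the rule, Gfap was at 0, Mbp at 19.6 and Aqp4 at 2.45 CPM.

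Single glial genes were counted in many of the 81 neuron-led members. Sox10, a transcription factor of the oligodendrocyte lineage, was at 65.1 CPM and counted in 72.8% of wells. Olig2 was at 73.1 CPM, against 509 in the Tac2-low wells without Mog or Mag, and Aldoc, a glycolytic enzyme typical of astrocytes, at 148 against 604 CPM, counted in 80.2% of wells. On the P7 plates Sox10 stood at 2.49 and 0.697, Olig2 at 2.76 and 2.09 and Aldoc at 5.52 and 5.23 CPM. With the 5 nonneuronal-led members left out, Sox10 rose by 5.18, Olig2 by 4.81 and Aldoc by 4.72 on the log2 scale (adjusted p = 8.37e-10, 2e-10 and 1.21e-13). With 2 adult plates and such wells left out, the adjusted p values were 0.00267, 0.00261 and 7.26e-05. The part of free or adhering glial RNA in these values was not tested.

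The other genes with the largest changes from P7, taken by size among genes that passed in the members, were of mixed function. Nap1l5, an imprinted histone chaperone whose gene overlaps Herc3, was at 17.4 and 22.7 CPM at P7, 205 in the members and 238 on adult-1, and rose by 3.31 ± 0.23 (adjusted p = 4.63e-13 and 0.00101). Npas3, Gpr158, Nfam1 and Rtl8c rose in both fits, and Wfikkn2 was lost with 2 adult plates (1.25e-10 and 0.069). Among falls, Hmgb3, a chromatin protein of proliferating and young cells, was at 104 and 110.3 CPM at P7, 6.51 in the members and 7.95 on adult-1, and fell by 4.08 ± 0.33 (4.25e-11 and 0.00042). Nrep, St8sia2, which makes polysialic acid, Fnbp1l, Fscn1 and Zfp804b also fell. A further 2 genes were lost with 2 adult plates. Gad1, an enzyme of GABA synthesis, was at 126 and 120.5 CPM at P7, 13.0 in the members and 58.9 on adult-1 (1.74e-06 and 0.21). Grin2b, an NMDA receptor subunit, was at 161 and 198 CPM at P7, 36.1 in the members and 168 on adult-1 (3.08e-09 and 0.388).

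Against the P4 plates, 2407 of 12789 genes passed (18.8%), with 1203 higher (9.41%) and 1204 lower (9.41%), and 1076 of 12354 (8.71%) with 2 adult plates, 545 of them higher (4.41%) and 531 lower (4.3%). This comparison uses the same adult sums as the one with P7. Of the 18 growth-stage genes 15 fell and 1 rose in the members, and 14 fell and 1 rose with 2 adult plates. Calb2 was at 307 and 202 CPM at P4, 836 and 731 at P7 and 992 in the members (1.88 ± 0.18 over P4, adjusted p = 8.27e-10 and 0.005), while its difference from P7 was 0.29 ± 0.17 (0.28). Calb1 rose by 2.47 over P4, Spon1 by 2.95 and Cck by 2.16. Chl1, a cell adhesion protein of growing axons, was at 308 and 371 CPM at P4, 108 and 145 at P7 and 26.6 in the members, and fell by 3.72 ± 0.26 from P4 (9.65e-13 and 0.00381). For Calb2 the step lay between P4 and P7, and for Chl1 levels were lower at each later stage.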

How the data were processed

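Single cells of the mouse habenula were measured by a 3' plate assay with molecular identifiers, in 384 wells a plate. Reads were processed with Trim Galore and aligned with STAR 2.5.3a to mm10, per the submitters' processing notes. The sources used here name no counting program and no annotation. The deposited values are expected counts: 46.1% were whole as deposited and 100% after a correction for collisions among 4096 identifiers was inverted (tolerance 1e-06), so they were rounded per plate sum although counts had been planned for. Total, spliced and unspliced tables were used. Of 37994 gene rows 37938 matched GENCODE M21 (GRCm38). No source states whether strand was used in counting, which leaves overlapping genes uncertain.

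Wells were filtered and chosen as stated in the text, and no doublet caller was run. The members and gene lists were chosen with earlier results of these data known. CPM are per 1000000 counts outside spike-ins, mitochondrial counts included. Sums of wells per plate, for plates with at least 10 wells in the gate, were tested with edgeR 4.0.16 (TMM scaling, quasi-likelihood test, low-count filter, Benjamini-Hochberg adjustment at 0.05, R 4.3.3) in 1 fit over P4, P7 and adult sums, and with DESeq2 1.42.0 as an alternative. The procedure was also run on simulated counts with the same spread on every plate. That run cannot show whether the adult-2 sum varies like the young plates. Intervals are exact binomial or Poisson at 95%, and a count of 0 was given the limit of 3 counts.

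Named genes were members of the lists; the 20 genes with the highest and 8 with the lowest ratio of members to other wells, by the smaller of the 2 plates' ratios at 200 CPM or more; and the 12 largest rises and 12 largest falls from P7 (5 and 5 from P4) at 100 CPM or more without overlap between plates. Genes of the X-inactivation RNA and the Y chromosome, mitochondrial genes and unnamed models were left out of these rules. Alternatives changed the gate, depth, filters, tool, plates and myelin rule. Groups defined by Slc5a7, Calb1 and Htr2c were chosen after values were seen. Results for a few genes are not reported here.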

Additional observations from a re-analysis of the deposited data

How the results depend on the processing

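The number of genes called depended on the processing. Against P7 the main fit called 1954 genes, DESeq2 521 and wells thinned to 3000 counts 522. A gate of 1000 CPM of Tac2 gave 1204, a gate of 5 counts 3081 and a fit of the 2 stages alone 3071. These are the totals of each setting, not parts of the 1954. Against P4 the 2407 calls became 840, 518, 564, 3695 and 1575 in that order. Leaving out 1 young plate gave 737 to 3113 calls against P7 and 1545 to 2682 against P4. The gates of 1000 CPM and of 20 counts also left plate P4-2 out of the fit, with 6 and 7 gated wells. With Mog and Mag allowed there were 680 and 1076 calls. Further settings were chosen after seeing the data: with nonneuronal-led wells also left out there were 800 and 1298, and with Mog and Mag allowed but 1 adult plate left out 2679 to 3169 and 2838 to 3297. Dropping the low-count filter, raising the gate to 20 counts, leaving out very deep or nonneuronal-led wells and using recovered identifier counts moved these counts by less than 1.5 times. The 24 genes named by size against P7 gave 480 values over the alternatives, of which 470 kept their call, 10 missed the threshold (Grin2b, Wfikkn2 and Gad1) and 0 reversed; all 200 values of the 10 genes named against P4 kept theirs.

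Replicate numbers were not taken to pair plates, since deviations of same-numbered plates correlated at 0.157 (P4 and P7), 0.0661 (P4 and adult) and 0.0780 (P7 and adult). With the number as a replicate block the calls were 1242 and 1678, and 733 and 1183 with Mog and Mag allowed. Members against other wells gave 45 genes at a 2-fold ratio, 25 with a gate of 5 counts, 575 against wells without Mog and Mag, 73 without very deep wells, and 40 to 1001 on 1 plate. The adult-1 share in the gate fell to 0% at a minimum of 2000 counts, at a mitochondrial share of at most 10% and after thinning to 3000 counts. Without very deep wells the unspliced share was 26.2% against 26.0%. The cause was not tested for any of these. A planned test of the stage difference against Tac2-low neurons, set as kept wells with no Mog or Mag, at most 2 Tac2 and at least 3 Snap25 counts, was not run, as adult-1 held 0 such wells and adult-2 held 8, under the 10 required on each plate. Depth limits the adult-1 members, which hold few counts each.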
